A study of Mus musculus with 7 samples.

Results

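Granins are acidic secretory proteins that are packed with neuropeptides into dense core vesicles, the regulated secretory granules of neurons and endocrine cells. Peptide hormones and neuropeptides are made as large precursors, which the prohormone convertases cut after pairs of basic residues and carboxypeptidase E trims at the new ends, and several granins are themselves precursors of shorter peptides. Neurons throughout the forebrain carry this machinery, and the mRNA of *Vgf*, *Scg2* and *Pcsk1* is known to rise with neuronal activity or growth factors in some settings. The genes described here were 6 granin family members (*Vgf*, *Scg2*, *Scg3*, *Scg5*, *Chga* and *Chgb*), 2 convertases (*Pcsk1* and *Pcsk2*), the convertase-binding protein gene *Pcsk1n* and the carboxypeptidase gene *Cpe*, chosen by name. Together they were 10 of 47729 genes in the count table, and 10 of 10 passed a filter of at least 10 counts in at least 3 libraries, as did 19684 genes in all.

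RNA was measured in whole forebrain at postnatal day 15, with 4 pools of control (*Lhx6*+/-) and 3 pools of mutant (*Lhx6*-/-) mice, each of 2 animals. All were of the strain F1(C57BL/6 X 129Sv), and both genotypes carried the null allele *Lhx6*tm2Vpa, on 1 chromosome in controls and on both in mutants, so neither group was wild type and no cell type was targeted. *Lhx6* encodes a LIM homeodomain transcription factor of interneurons born in the medial ganglionic eminence (MGE). The comparison asks how the forebrain transcriptome differs when both copies are mutated. The labels give pools of 2 males or 2 females for controls and of 2 females or 1 male and 1 female for mutants, but the columns of the count table do not say which pool is which, so the part of sex in the results was not tested. Libraries are named here by genotype and by the number in their column name.

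Libraries held 32556304 to 38069151 expected counts. *Lhx6* had 476 to 615 normalized counts in controls and 70.1 to 76.6 in mutants. A normalized count is the expected count divided by the library's size after TMM scaling, relative to the mean size. Libraries 2, 3 and 5 stood apart from libraries 10 to 13 on the first principal component, which held 39.6% of the variance, and each of these runs of numbers held both genotypes. The labels do not say what the numbers stand for, so values within each run are given beside the results. Forebrain markers were present (cortical excitatory list, 10 of 10 tested, summed level 5107 to 6628 CPM, that is, counts as a rate over the library's TMM-scaled size), whereas 11 of 12 hypothalamic and 7 of 10 pituitary markers had at most 15 counts in every library, summing with the rest of their lists to 1.60 to 3.54 CPM in controls and 3.03 to 6.02 CPM in mutants for hypothalamus and to 2.99 to 3.33 and 3.67 to 4.30 CPM for pituitary. The pituitary marker *Fshb* was at 0 in all 7 libraries. In bulk RNA, fewer cells of a type and less RNA per cell cannot be told apart, and p-values set the genotype difference against the spread between pools.

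Short stretches of the promoters are shown first, because 8 of the 10 genes had an entry in the RefSeq promoter table and a cAMP response element, the site bound by CREB and related factors, is a known feature of several granin and convertase promoters. The letters TGACGTCA, which read the same on both strands, and the core TGACG, with CGTCA for the other strand, were searched in the 250 bases before the RefSeq start. The full element was found in 3 of the 8, *Scg2*, *Pcsk1* and *Chgb*, the core without it in 4, *Chga*, *Scg3*, *Scg5* and *Pcsk2*, and neither in *Pcsk1n*. Among all 32851 promoters of the table, 1.55% held the full element and 17.8% held the core on either strand, full elements included. *Vgf* and *Cpe* had no entry. The 3 full elements and, for contrast, 2 cores are printed with the bases around them, 5′ to 3′ on the strand of the gene (GRCm38.p6), with the matched letters in capitals.

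*Scg2*, chr1:79440076-79440105, minus strand, full element starting 68 bases before the RefSeq start: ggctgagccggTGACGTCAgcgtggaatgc
*Pcsk1*, chr13:75089768-75089797, plus strand, full element at 78 bases before: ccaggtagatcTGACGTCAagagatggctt
*Chgb*, chr2:132781559-132781588, plus strand, full element at 72 bases before: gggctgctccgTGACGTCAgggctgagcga
*Chga*, chr12:102554885-102554914, plus strand, core at 44 bases before: ggggcggtcctaTGACGtaatttcctgggt
*Pcsk2*, chr2:143546087-143546116, plus strand, core of the other strand at 34 bases before: ctggcgggcgcgCGTCAcccgggctggcgc

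*Pcsk1* held a further core 50 bases before its start. In the deposited annotation the models of *Scg2* and *Chgb* begin further upstream, so all 8 bases of their elements lay within an annotated exon there. A match of letters is a description of these windows only, and nothing in the data measured binding.

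In mutants, 3 of the 10 genes were called higher and 0 were called lower. These were *Scg2*, *Vgf* and *Pcsk1*, which are 2 peptide-precursor granins and a convertase. In edgeR's quasi-likelihood fit, with p-values adjusted by the Benjamini-Hochberg method and a threshold of 0.05, 2.97% of all tested genes were called higher, 1.87% lower and 4.85% in either direction. On the lower side, 2 genes (*Pcsk2* and *Pcsk1n*) had an unadjusted edgeR p under 0.05, and DESeq2 called 0 of the 10 lower. The mutant libraries lay all above or all below the controls for 6 of the 10, 4 above and 2 below, against 19.7% of all tested genes. The median log2 fold change of the 10 was 0.30, and that of all tested genes was -0.013.

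**Figure D1:**
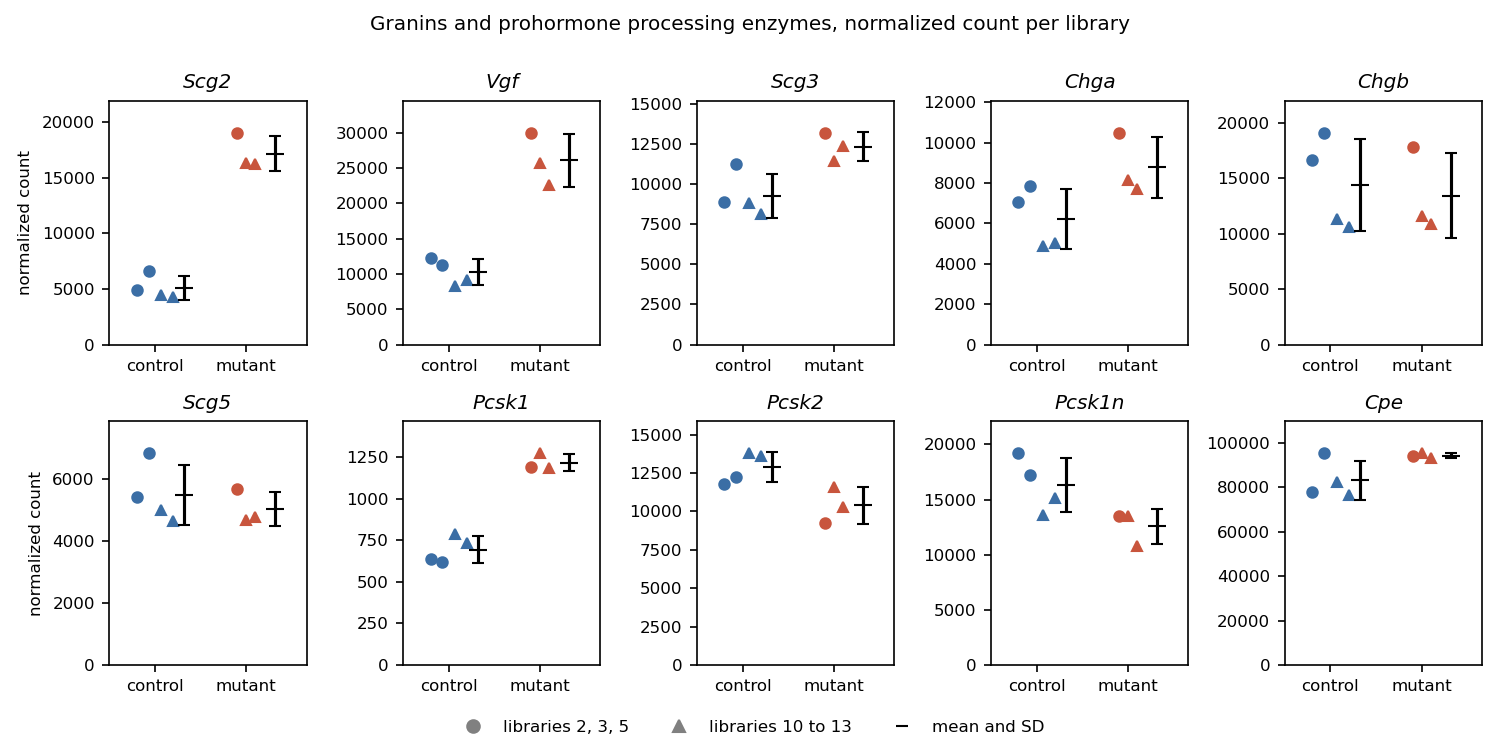
Normalized count (y axis, from 0, a scale of its own for each gene) of the 10 genes in the 4 control and 3 mutant libraries, with circles for libraries 2, 3 and 5, triangles for libraries 10 to 13, and bars for the mean and SD of each genotype. *Scg2*, *Vgf* and *Pcsk1* show mutant libraries well above all controls, while *Chgb* follows the run of library numbers in both genotypes.

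Among the granins, *Scg2* (ENSMUSG00000050711, chromosome 1, 79434669 to 79440120, minus strand, GRCm38) encodes secretogranin II, the precursor of secretoneurin. Among controls, its normalized count was 4918 in library 2, 6598 in library 3, 4481 in library 10 and 4309 in library 11, and the mutants had 19026 (library 5), 16270 (library 12) and 16196 (library 13). Values of the other genes are given in this order. Every mutant library stood far above the highest control. The mean rose from 5076 ± 1046 (SD, n = 4) to 17164 ± 1613 (SD, n = 3), a 3.38-fold change (log2 fold change 1.76, SE 0.153, 95% interval 1.41 to 2.11; edgeR's adjusted p = 0.000674). Taken separately, the first run (libraries 2, 3 and 5) gave a log2 ratio of genotype means of 1.72, and the second (libraries 10 to 13) one of 1.88.

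*Vgf* (ENSMUSG00000037428, chromosome 5, 137026392 to 137033351, plus strand) encodes a precursor of several neuropeptides, among them TLQP peptides and neuroendocrine regulatory peptides. It had 12299, 11340, 8264 and 9153 normalized counts in the controls and 30011, 25721 and 22566 in the mutants. The genotypes did not overlap, and within each genotype the libraries of the first run were the higher ones. The mean of 10264 ± 1874 (SD, n = 4) rose 2.54-fold to 26099 ± 3737 (SD, n = 3; log2 fold change 1.35, SE 0.156, interval 0.99 to 1.70; edgeR's adjusted p = 0.00268), with a log2 ratio of 1.34 in the first run and 1.47 in the second.

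The remaining granins moved less. *Scg3* (ENSMUSG00000032181, chromosome 9, 75643264 to 75683996, minus strand) encodes secretogranin III, which tethers granin aggregates to the cholesterol-rich granule membrane. It had 8870, 11223, 8803 and 8112 normalized counts in controls and 13180, 11395 and 12341 in mutants, so mutant library 12 was only just above control library 3. The log2 fold change was 0.41 (SE 0.120, interval 0.14 to 0.68) with edgeR's adjusted p = 0.0992. It was called by DESeq2 (adjusted p = 0.0235, where 8.8% of genes were called), and by edgeR without control library 3 (log2 fold change 0.52, adjusted p = 0.0144).

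*Chga* (ENSMUSG00000021194, chromosome 12, 102554969 to 102565027, plus strand) encodes chromogranin A, the precursor of vasostatins, pancreastatin and catestatin. Its normalized count was 7061, 7878, 4867 and 5027 in controls and 10492, 8139 and 7688 in mutants. Over all libraries the genotypes overlapped, since control library 3 exceeded mutant library 13, but within each run every mutant library was above every control. Each run holds few libraries (controls 2 and 3 with mutant 5, and controls 10 and 11 with mutants 12 and 13). Such an order is therefore easily met, and it was not tested. The log2 fold change was 0.50 (SE 0.191, interval 0.06 to 0.93; edgeR's adjusted p = 0.208), and the log2 ratio was 0.49 within the first run and 0.68 within the second.

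*Chgb* (ENSMUSG00000027350, chromosome 2, 132781278 to 132795079, plus strand), for the related chromogranin B, had 16649, 19110, 11305 and 10597 normalized counts in controls and 17842, 11576 and 10866 in mutants. Here the libraries separated by run and not by genotype: control libraries 2 and 3 averaged 1.63 times control libraries 10 and 11, the largest such ratio among the 10 genes. The log2 fold change between genotypes was -0.10 (SE 0.247; edgeR's adjusted p = 0.887), and its interval of -0.66 to 0.46 holds changes of either sign. Within the runs the log2 ratio was -0.0030 and 0.04.

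*Scg5* (ENSMUSG00000023236, chromosome 2, 113776362 to 113829121, minus strand) encodes 7B2, a chaperone and inhibitor of the PCSK2 proenzyme. It ranged from 4658 to 6841 normalized counts in controls and from 4665 to 5675 in mutants, with the mutant values inside the control range. Its log2 fold change was -0.12 (SE 0.140, interval -0.44 to 0.20; edgeR's adjusted p = 0.736).

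Summed over its 6 genes, the family stood at a higher level in mutants, with another composition. Of these genes, edgeR's fit without a covariate called only *Vgf* and *Scg2* higher. The level per length is given in CPM per kilobase of merged exons, which permits comparison between genes. Summed over the 6 granin genes it was 503 to 756 in controls and 859 to 1101 in mutants. *Vgf* and *Scg2* together made up 23.9% to 26.8% of this sum in the 4 controls and 45.0% to 47.7% in the 3 mutants. *Chgb* took 21.6% to 26.1% of it in controls and 13% to 16.6% in mutants, and *Scg5* took 14.8% to 17.4% and 9.22% to 9.94%, although the normalized counts of neither were called different. These shares describe one sum and were not tested.

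**Figure D2:**
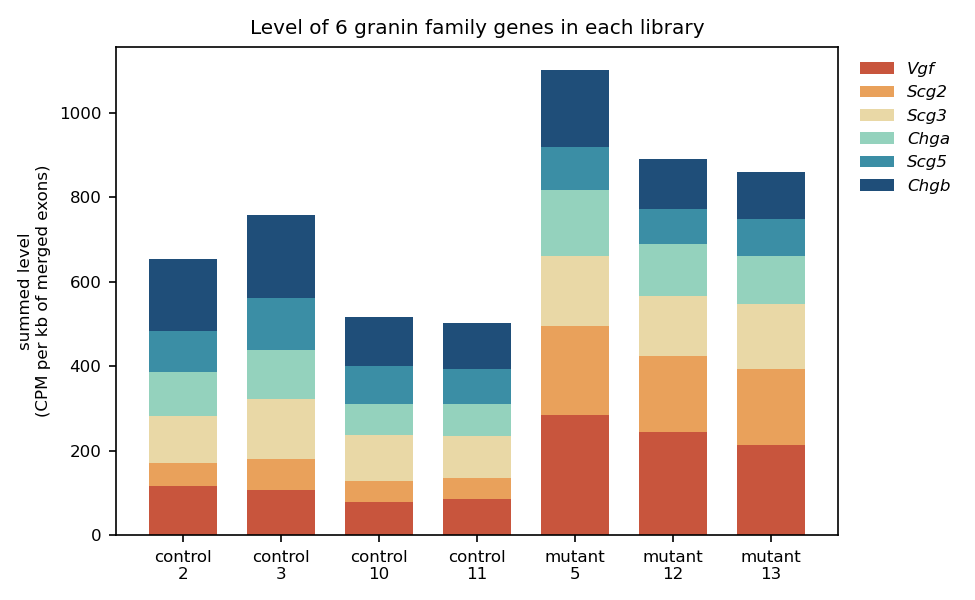
Summed level of 6 granin family genes (y axis, CPM per kilobase of merged exons) in each of the 7 libraries (x axis), split by gene. The bars reach 503 to 756 in controls and 859 to 1101 in mutants, and the parts for *Vgf* and *Scg2* together take 23.9% to 26.8% of a control bar and 45.0% to 47.7% of a mutant bar.

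The convertases differed from each other in direction. *Pcsk1* (ENSMUSG00000021587, chromosome 13, 75089826 to 75132498, plus strand) encodes PC1/3, the convertase that makes the early cuts in many precursors. It had 637, 620, 787 and 731 normalized counts in controls and 1193, 1274 and 1185 in mutants. The lowest mutant library was well above the highest control, and the 3 mutant values lay close together. The mean rose 1.75-fold, from 694 ± 79.0 (SD, n = 4) to 1217 ± 49.2 (SD, n = 3; log2 fold change 0.81, SE 0.103, interval 0.58 to 1.05; edgeR's adjusted p = 0.00424). In controls it was lower in the first run than in the second (log2 ratio -0.27), the opposite of *Vgf* (0.44) and *Scg2* (0.39), and its log2 ratio between genotypes was 0.92 in the first run and 0.70 in the second.

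*Pcsk2* (ENSMUSG00000027419, chromosome 2, 143546156 to 143816285, plus strand) encodes PC2, which acts later in the granule and makes the smaller peptides. Its normalized count was 11803, 12250, 13795 and 13575 in controls and 9252, 11616 and 10278 in mutants. All mutant libraries were below all controls, by a narrow margin between mutant library 12 and control library 2. The log2 fold change of -0.31 (SE 0.104, interval -0.55 to -0.07) did not pass the threshold (edgeR's adjusted p = 0.155), and the log2 ratio was -0.38 in the first run and -0.32 in the second. Opposite-strand transcripts (*Pcsk2os1* and *Pcsk2os2*) overlap 4.54% of its exon bases, and whether reads were counted by strand is not given in the sources used here.

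*Pcsk1n* (ENSMUSG00000039278, chromosome X, 7919822 to 7924410, plus strand) encodes proSAAS, a granin-like inhibitor of PC1/3. It had 19224, 17276, 13593 and 15113 normalized counts in controls and 13475, 13551 and 10750 in mutants, again with all mutants below all controls, though mutant library 12 and control library 10 nearly touched. Its log2 fold change was -0.37 (SE 0.139, interval -0.69 to -0.06; edgeR's adjusted p = 0.197). The opposite-strand gene *Eras* shares 6.16% of its exon bases. Among 36-base words, the read length of the study, 4.63% of those of *Pcsk1n*, 5.22% of those of *Pcsk2* and 0.848% of those of *Chga* also occurred in other genes, and 0% for the other 7 genes.

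*Cpe* (ENSMUSG00000037852, chromosome 8, 64592558 to 64693040, minus strand) encodes the carboxypeptidase that removes the basic residues left by the convertases. It was by far the most abundant of the 10, at 76527 to 95413 normalized counts in controls and 93228 to 95370 in mutants. The mutant libraries clustered near the top of the control range, within which control library 3 was the highest of all 7. The log2 fold change was 0.18 (SE 0.0923, interval -0.03 to 0.39; edgeR's adjusted p = 0.354).

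**Figure D3:**
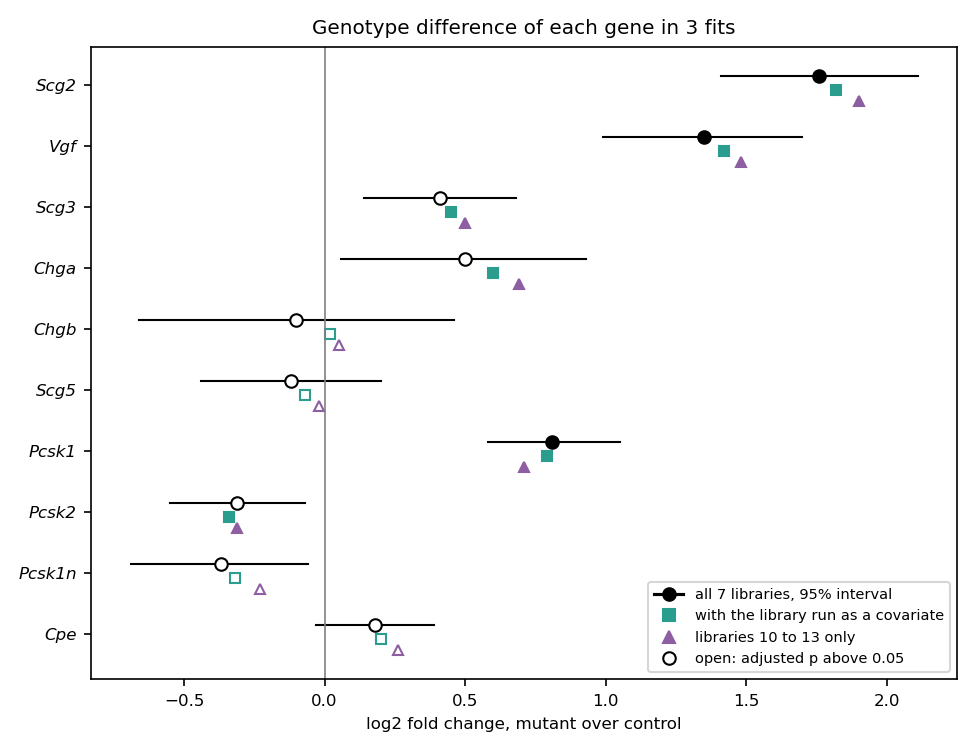
Log2 fold change, mutant over control, of the 10 genes, from all 7 libraries (circles, with 95% intervals), from a fit with the library run as a covariate (squares) and from libraries 10 to 13 only (triangles), with filled symbols for an adjusted p of 0.05 or less. *Scg2*, *Vgf* and *Pcsk1* are filled in the 3 fits, whereas *Scg3*, *Chga* and *Pcsk2* are filled in those that take the run into account.

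With the library run as a covariate, 5 genes were called higher and 1 lower. *Chga* (log2 fold change 0.60, edgeR's adjusted p = 0.00185) and *Scg3* (0.45, adjusted p = 0.0169) joined those called higher, and *Pcsk2* (-0.34, adjusted p = 0.0142) was called lower. The background rose as well, to 6.16% of all genes called higher and 5.04% lower. In libraries 10 to 13 alone, 2 of each genotype, the calls on the members were the same, with *Chga* at 0.69 (adjusted p = 0.000752), *Scg3* at 0.50 (adjusted p = 0.00516) and *Pcsk2* at -0.31 (adjusted p = 0.0432), against 10.3% of genes called in either direction. *Chgb*, *Scg5*, *Pcsk1n* and *Cpe* were called in neither fit.

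Ratios within a library put convertases beside their partners on the same scale of CPM per kilobase. The ratio of *Pcsk1* to *Pcsk2* was 0.132, 0.123, 0.139 and 0.131 in controls and 0.315, 0.268 and 0.281 in mutants. It was nearly constant among controls and did not split by run, and its mean of 0.131 ± 0.00643 (SD, n = 4) became 0.288 ± 0.0241 (SD, n = 3), 2.19 times as high. The ratio of *Pcsk1* to the gene of its inhibitor, *Pcsk1n*, was 0.0224, 0.0243, 0.0392 and 0.0327 in controls and 0.0599, 0.0636 and 0.0746 in mutants. It too separated the genotypes, at 2.23 times the control mean. The ratio of *Pcsk2* to its chaperone gene *Scg5* overlapped between genotypes, at 0.478 ± 0.103 (SD, n = 4) and 0.415 ± 0.0859 (SD, n = 3). These ratios were formed from genes already tested and got no test of their own.

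**Figure D4:**
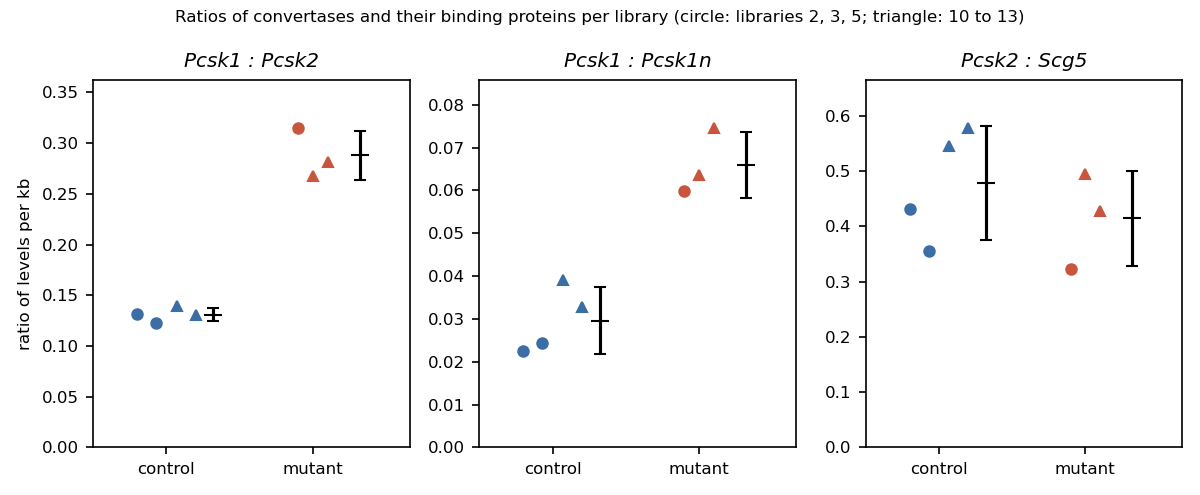
Ratio of levels per kilobase (y axis, from 0) of *Pcsk1* to *Pcsk2*, *Pcsk1* to *Pcsk1n* and *Pcsk2* to *Scg5* in each library, with circles for libraries 2, 3 and 5, triangles for libraries 10 to 13, and bars for the mean and SD. The first ratio is 0.123 to 0.139 in controls and 0.268 to 0.315 in mutants, and the last overlaps between genotypes.

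In level per kilobase, the order in controls was *Cpe* (1117 ± 116 CPM per kilobase), *Pcsk1n* (209 ± 31.6), *Chgb* (148 ± 42.4), *Scg3* (116 ± 17.0), *Scg5* (98.1 ± 17.1), *Vgf* (96.9 ± 17.7), *Chga* (92.6 ± 22.3), *Scg2* (56.7 ± 11.7), *Pcsk2* (45.6 ± 3.47) and *Pcsk1* (6.01 ± 0.684; SD, n = 4 each). Only *Cpe* at the top and *Pcsk1* at the bottom were clear of their neighbours. From *Pcsk1n* down to *Pcsk2*, the ranges of neighbours overlapped. In mutants *Vgf* (246 ± 35.3) ranked 2 and *Scg2* (192 ± 18) ranked 3, against ranks 6 and 8 in controls, and the ranges of both were clear of the genes below them, *Pcsk1n* (161 ± 20.4), *Scg3* (154 ± 11.2), *Chgb* (138 ± 39.3) and *Chga* (131 ± 22.5; SD, n = 3 each), with the exception that *Chgb* in mutant library 5 reached 183, within the range of *Scg2*. The last 3 in mutants were *Scg5* (90.1 ± 9.91), *Pcsk2* (36.8 ± 4.21) and *Pcsk1* (10.5 ± 0.426). The 10 genes took 0.406% to 0.540% of all counts in controls and 0.536% to 0.620% in mutants.

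Other genes of the pathway were read from the same fit. Among 7 other proprotein convertases, 0 were called in either direction by edgeR, DESeq2 or limma-voom, 1 (*Pcsk6*) had an unadjusted edgeR p under 0.05, and the median log2 fold change was 0.16. *Pcsk6* (PACE4) was at 501 ± 52.9 (SD, n = 4) and 680 ± 117 (SD, n = 3; edgeR's adjusted p = 0.137, and 0.0107 to 0.405 under the alternatives, called only in the 2 fits that take the run into account), and *Furin*, the convertase of the constitutive pathway, at 1890 ± 264 and 2106 ± 382 normalized counts (adjusted p = 0.649).

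Among 16 other trimming and modifying enzymes, 2 were called higher and 0 lower, with a median log2 fold change of 0.23. DESeq2, limma-voom and the unadjusted edgeR p also gave 0 lower. *Pam*, the enzyme that amidates the end of many neuropeptides, rose from 6394 ± 215 (SD, n = 4) to 9383 ± 258 (SD, n = 3), or 1.47-fold (log2 fold change 0.55, SE 0.0719; edgeR's adjusted p = 0.00466). Its values lay between 6127 and 6579 in controls and between 9169 and 9669 in mutants, and it was called under 16 of 16 alternatives. *Cpxm1*, a carboxypeptidase-like protein, rose from 288 ± 8.07 to 389 ± 18 normalized counts (edgeR's adjusted p = 0.0405), a call kept under 9 of 16 alternatives and under 1 of the 7 that left out a library (control library 3).

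Among 22 genes of dense core vesicle biogenesis and release, 4 were called higher and 1 lower, with a median log2 fold change of -0.04. *Syt10*, a synaptotagmin, went from 143 ± 36.5 to 349 ± 46.6 normalized counts (log2 fold change 1.28; edgeR's adjusted p = 0.0128). *Ptprn*, whose product IA-2 spans the granule membrane, went from 19810 ± 1342 to 27381 ± 835 (0.47; adjusted p = 0.0154). The small GTPase gene *Rab27b* went from 1088 ± 122 to 1662 ± 196 (0.61; adjusted p = 0.0203), and the vesicle priming gene *Cadps2* from 3621 ± 321 to 4947 ± 576 (0.45; adjusted p = 0.0489). The gene called lower was *Baiap3*, a relative of the Munc13 proteins, from 344 ± 65.2 to 190 ± 34.6 (-0.86; adjusted p = 0.0406). For each of these 5 the genotypes did not overlap, but they were picked by p-values from the same libraries, so this adds no separate support. The calls were not kept under every alternative. *Cadps2* was lost with limma-voom and with RLE size factors, and *Baiap3* in libraries 10 to 13 only. With 1 library left out, *Syt10* and *Rab27b* were lost without mutant library 12 (or 13), *Ptprn* also without mutant library 5 or control library 10, *Baiap3* without any but control library 11, and *Cadps2* without any of the 7 (largest adjusted p over the alternatives 0.0621, 0.113, 0.0776, 0.121 and 0.20, in this order).

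**Figure D5:**
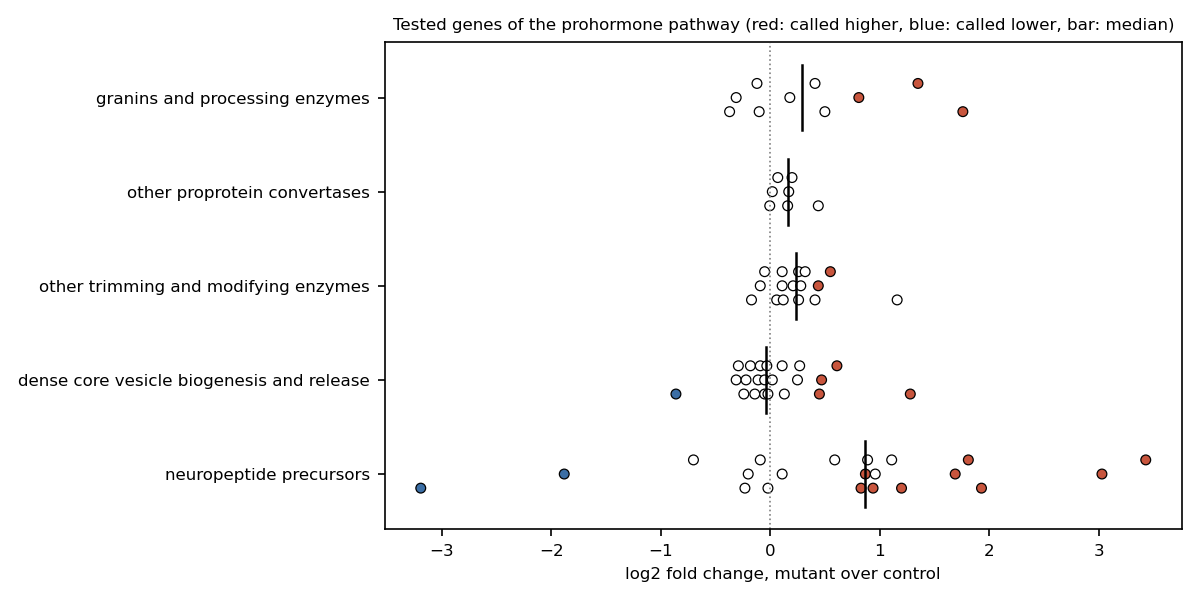
Log2 fold change, mutant over control (x axis), of every tested gene of the 10 described and of 4 lists of the prohormone pathway (rows), with the median of each list as a bar. Red points were called higher and blue points lower, and the neuropeptide precursors spread from -3.19 (*Sst*) to 3.43 (*Adcyap1*).

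Of 27 neuropeptide precursors, the substrates of these enzymes, 21 were tested, 9 were called higher and 2 lower, and the median log2 fold change was 0.87. The higher ones with the smallest p were *Adcyap1* (PACAP; 578 ± 80.7 to 6218 ± 663 normalized counts, log2 fold change 3.43, edgeR's adjusted p = 2.33e-05), *Npy* (1.69, adjusted p = 0.000226), *Pnoc* (nociceptin; 1.81, adjusted p = 0.000389), *Cck* (0.87, adjusted p = 0.000641) and *Gal* (galanin; 3.03, adjusted p = 0.000660, from 5.76 to 8.77 normalized counts in controls to 54.9 to 61.3 in mutants). *Gal* had fewer than 10 counts in every control, so it met the filter through the 3 mutant libraries only. It could be tested under 11 of the 16 alternatives, 4 of which left out a library, and was called in each of these. *Penk*, *Cort*, *Vip* and *Tac1* were the other 4 called higher. Of these 4, only *Cort* was called with every library left out in turn, since *Penk*, *Vip* and *Tac1* were lost without mutant library 12 or 13, and *Tac1* also without control library 2 or 10. *Sst*, a marker of the MGE-derived cells, had a log2 fold change of -3.19 (adjusted p = 6.37e-05) and *Grp*, the gastrin-releasing peptide precursor, one of -1.88 (adjusted p = 0.0102, and 0.0640 without mutant library 13). The 6 precursors below the filter are known mainly from hypothalamic neurons, *Oxt*, *Hcrt*, *Pmch*, *Ghrh*, *Gnrh1* and *Kiss1*, each with at most 9 counts in any library.

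Markers of other states and cell types also differed between the genotypes, and their part in the granin results was not tested. Of 14 immediate early genes, which are induced within minutes of stimulation, 2 were called higher, *Npas4* (edgeR's adjusted p = 0.0130) and *Fosb* (adjusted p = 0.0332, lost with limma-voom and without any 1 library but mutant library 13), and 0 lower by edgeR (1 at an unadjusted p under 0.05 and 1 by DESeq2). The summed level of the list was 794 to 1101 CPM in controls and 736 to 1256 CPM in mutants. *Npas4* had 560, 290, 600 and 491 normalized counts in controls and 1537, 2872 and 1175 in mutants, with mutant library 12 the highest. *Pcsk1* was also highest in mutant library 12, and *Vgf* and *Scg2* were highest in mutant library 5. With 3 mutant libraries, this order was not tested.

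The MGE-derived interneuron markers summed to 674 to 747 CPM in controls and 414 to 461 CPM in mutants (8 of 12 called lower, 2 higher), and those of interneurons from the caudal ganglionic eminence to 439 to 542 and 645 to 734 CPM (4 of 11 called higher). Pan-GABAergic markers overlapped, at 984 to 1159 and 921 to 1187 CPM (1 of 6 called lower). General neuronal markers summed to 6653 to 6905 and 5990 to 6299 CPM (2 of 10 called lower), a lower level in all mutant libraries. Of these 10 markers, 8 had a negative log2 fold change and 2 a positive one. Astrocyte markers summed to 5902 to 8552 and 9342 to 10923 CPM (1 of 7 called higher, *Gfap*), and oligodendrocyte markers to 6570 to 8456 and 4709 to 5787 CPM (3 of 6 called lower). Of the 10 cortical excitatory markers, 1 was called higher and 1 lower, and edgeR called 0 among the striatal, thalamic, microglial, endothelial, choroid plexus, hypothalamic and pituitary lists. At an unadjusted p under 0.05 these lists held 1, 1, 2, 3, 1, 0 and 0 genes, and DESeq2 called 1 of them, in the endothelial list.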

How the data were processed

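Total RNA of 7 forebrain pools was sequenced as 36-base single-end reads. The authors trimmed reads (cutadapt 1.9.1), aligned them to the GRCm38 transcriptome (Bowtie2 2.2.9) and deposited RSEM 1.2.31 expected counts per gene, without normalization; versions are from the submitters' processing notes. The deposited comparison table (DESeq2 fold changes and p-values) served only to pair gene identifiers with symbols. Gene lengths, positions and overlaps came from the deposited annotation.

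Expected counts were rounded, filtered (at least 10 counts in at least 3 libraries), scaled by TMM and tested between genotypes with edgeR 4.0.16 (quasi-likelihood F-test, no covariate, Benjamini-Hochberg over 19684 genes, threshold 0.05; R 4.3.3). The SE was obtained as |log2 fold change| divided by the root of F. Alternatives used DESeq2 1.42.0, limma-voom 3.58.1 and other scalings, filters and libraries. Scripts were tested on simulated data.

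Libraries held 32556304 to 38069151 counts, which puts the floor of 3 counts at 0.0788 to 0.0921 CPM. Replicates differed by more than sampling noise (chi-square per degree of freedom 9.93 to 70.4), and each counted once. Columns name the genotype and a library number only; 0 columns of per-sample values were left unused.

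The genes, the lists and the tests were chosen with earlier results of these data known. Named were the 10 genes, *Lhx6*, the called genes of each pathway list (values for at most 5 in each direction), and marker genes set beside them; *Furin*, *Pcsk6* and *Fshb* were named after their values were seen. Lists covered immediate early genes, interneurons of both eminences, GABAergic, all and cortical excitatory neurons, striatum, thalamus, hypothalamus, pituitary, glia, endothelium and choroid plexus.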

Additional observations from a re-analysis of the deposited data

How the results depend on the processing

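*Scg2*, *Vgf* and *Pcsk1* were called higher under each of 16 alternatives, 7 of which left out a library, with adjusted p from 3.28e-25 to 0.00528, from 2.20e-14 to 0.0149 and from 6.30e-10 to 0.0291. The number of the 10 genes called higher was 5 and called lower 1 with the library run as a covariate and in libraries 10 to 13 only, and 3 to 4 higher and 0 lower when a library was left out. *Scg3* was called under 4 alternatives (adjusted p 0.00516 to 0.286), *Chga* under 2 (0.000752 to 0.456) and *Pcsk2* under 2 (0.0142 to 0.405), and the other 4 genes under 0.

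Over all genes, 954 were called, against 1731 by DESeq2, 2205 with the run as a covariate, 1922 in libraries 10 to 13, and 302 to 971 when a library was left out (302 without mutant library 13, 387 without mutant library 12, 458 without mutant library 5, 513 without control library 10 and 589 without control library 11). Of 160 values of the log2 fold change, 5 changed sign, all for genes that were not called: *Chgb* reached 0.02 with the run as a covariate, 0.05 in libraries 10 to 13, and -0.35 to 0.06 when a library was left out, and *Scg5* reached 0.0024 without control library 3 (range -0.21 to 0.0024). The cause was not tested. With the longest transcript as the length, the control level became 127 CPM per kilobase for *Scg5*, 7.27 for *Pcsk1* and 76.4 for *Pcsk2*, which then ranked above *Scg2*. No paired analysis was possible because the columns carry library numbers and no replicate numbers. Counting error was small for these genes, which had at least 581 counts in each library, so that 7 pools set the precision.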
